A study of Mus musculus with 70 samples.

Results

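The genes described here encode 7 effector molecules of regulatory T cells (Tregs), namely Areg, Il10, Ebi3, Fgl2, Penk, Il1rn and Furin. They were chosen by name as molecules with which Tregs are known to suppress other cells or support tissue repair. Earlier results of these data were known by then, so counts of members beside shares of all genes are descriptive only. The members make up 7 of the 53465 gene IDs in the count table. RNA-seq had been run on Tregs sorted from 5 male Foxp3-YFP-cre mice (the Foxp3tm4(YFP/icre)Ayr allele on a B6.129(Cg) background), aged 16.6 to 18.6 weeks, in which a yellow fluorescent protein fused to Cre recombinase marks cells that express Foxp3. Live CD4+ YFP+ cells were gated and separated by the IL-33 receptor ST2 and by CD44. ST2+ CD44hi and ST2- CD44hi Tregs (here ST2+ and ST2- Tregs) came from 6 sites, blood, spleen, lungs, the skin of the back, the lamina propria of the colon and visceral fat of the abdomen (VAT), and ST2- CD44lo CD62L+ Tregs (central Tregs) came from spleen and lungs. No group was treated, and all groups carried the reporter allele. At most 220 cells were sorted into a tube, and 7 of the libraries used here came from fewer, down to 55. Lungs, VAT, colon and skin were digested with collagenase at 37 °C while blood and spleen were prepared without enzyme, and spleen and lungs were enriched for CD4+ cells on beads, so tissue and preparation cannot be told apart. In such bulk samples, fewer cells of a type and less RNA per cell also cannot be told apart.

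Of 70 libraries, the 67 with over 1000000 counts were used, each with 1304560 to 2759926 counts (median 2039002). Every one of the 14 groups held 5 mice, except ST2+ Tregs of blood (4) and of colon (3). No 2 libraries of a group held identical counts. Summed over the 7 Treg markers fixed for this work (Foxp3, Il2ra, Ctla4, Ikzf2, Cd4, Cd3e and Trac), libraries held 2570 to 5867 counts per 1000000 counts (CPM), and none of those markers was at 0 throughout a group. A list of 12 myeloid markers summed to between 2774 and 2936 CPM in the 3 colon ST2+ libraries, with all 12 genes detected. In colon ST2- Tregs the same sum was 496 to 1546 CPM, and in no other library did it exceed 762 CPM. A list of 6 B cell markers summed to 284 to 2704 CPM in VAT ST2+ and 538 to 1950 CPM in VAT ST2- libraries, and to 174 to 1360 CPM in all others. Markers of stromal cells summed to 347 to 1121 CPM in colon ST2+ and 6.82 to 745 CPM in colon ST2- Tregs, and epithelial markers to 199 to 1012 and 42.6 to 752 CPM. In skin, stromal markers summed to 2.56 to 81.4 CPM in ST2+ and 44.0 to 756 CPM in ST2- Tregs. Epithelial markers summed to 135 to 657 CPM in skin ST2+ and 77.5 to 1125 CPM in skin ST2- Tregs. Mast cell and basophil markers summed to 25.4 to 590 CPM in skin ST2+ and 22.6 to 89.6 CPM in skin ST2- Tregs. The part of these cells in the VAT, colon and skin differences was not tested.

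The 7 genes act at different steps. Amphiregulin (Areg) is a membrane-anchored growth factor that is shed and acts on the epidermal growth factor receptor, and Treg-derived amphiregulin is known for its part in tissue repair. Interleukin-10 (Il10) restrains inflammatory cells, Ebi3 is a cytokine subunit shared by interleukin-27 and interleukin-35, and the interleukin-1 receptor antagonist (Il1rn) blocks the interleukin-1 receptor without signalling. Fibrinogen-like protein 2 (Fgl2) is a secreted suppressive molecule that binds inhibitory Fc receptors, proenkephalin (Penk) is the precursor of enkephalin opioid peptides, and Furin is the Golgi protease that cleaves many proproteins, among them pro-TGF-β1.

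All 7 genes are annotated on the mouse build GRCm38. Areg (ENSMUSG00000029378) spans chr5:91139599-91148432 on the plus strand, and Fgl2 (ENSMUSG00000039899) spans chr5:21372642-21378374 on the same strand. Il10 (ENSMUSG00000016529) lies at chr1:131019845-131024974, Ebi3 (ENSMUSG00000003206) at chr17:55952640-55957022 and Il1rn (ENSMUSG00000026981) at chr2:24336853-24351494, all 3 on the plus strand. Penk (ENSMUSG00000045573) lies at chr4:4133531-4138819 and Furin (ENSMUSG00000030530) at chr7:80388585-80405436, both on the minus strand. Exons of Ebi3, Penk and Furin overlap genes on the opposite strand (Gm16712, A830012C17Rik and Gm44851) over 270, 233 and 118 bases. The strand setting of the counting is not given in the sources used here, so reads from those stretches cannot be assigned to one strand with certainty.

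Promoter sequences are shown for 3 of the 5 members, out of 7, that had an entry in the table used. Areg and Furin are those whose levels followed the immediate early genes most closely across libraries, and Ebi3 followed them less closely. Each is the 250 bases before a RefSeq transcription start (GRCm38.p6). Il10, which had no entry, followed those genes about as closely as Furin (r = 0.785 against 0.786). The Areg stretch is chr5:91139349-91139598 on the plus strand, the Furin stretch chr7:80405437-80405686 on the minus strand and the Ebi3 stretch chr17:55952373-55952622 on the plus strand. Furin has a further start, whose stretch (chr7:80402813-80403062) is not shown. Capitals mark the cAMP response element TGACGTCA.
Areg: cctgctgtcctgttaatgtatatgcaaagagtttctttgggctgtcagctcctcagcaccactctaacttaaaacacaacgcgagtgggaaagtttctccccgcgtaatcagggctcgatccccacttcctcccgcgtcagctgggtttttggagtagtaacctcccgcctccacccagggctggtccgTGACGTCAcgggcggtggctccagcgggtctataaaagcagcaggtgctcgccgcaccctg
Furin: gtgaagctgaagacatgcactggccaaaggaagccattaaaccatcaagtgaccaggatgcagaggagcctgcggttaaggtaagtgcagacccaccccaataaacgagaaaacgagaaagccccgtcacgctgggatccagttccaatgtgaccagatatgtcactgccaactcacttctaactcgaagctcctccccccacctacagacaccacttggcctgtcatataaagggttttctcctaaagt
Ebi3: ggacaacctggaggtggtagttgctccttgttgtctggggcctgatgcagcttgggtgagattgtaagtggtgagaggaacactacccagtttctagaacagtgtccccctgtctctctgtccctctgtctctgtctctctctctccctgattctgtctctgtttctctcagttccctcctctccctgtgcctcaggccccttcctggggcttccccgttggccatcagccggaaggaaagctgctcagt

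The letters TGACGTCA, which read the same on both strands, began 61 bases before the Areg start. They occurred in 508 of 32851 RefSeq promoter stretches of this length (1.55%). The Areg, Furin and Ebi3 stretches held no match to the AP-1 motif TGANTCA, which 6.75% of stretches hold, and the Furin and Ebi3 stretches held no TGACGTCA. TGANTCA was found 16 bases before the RefSeq start of Fgl2, inside the first exon as GENCODE draws it, and 141 bases before the most upstream of the 3 Il1rn starts. Neither the E-box CACGTG (6.02% of stretches) nor AGATAA, the GATA motif (9.99%), matched any member's stretch on either strand. Such a match describes letters only.

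**Figure D1:**
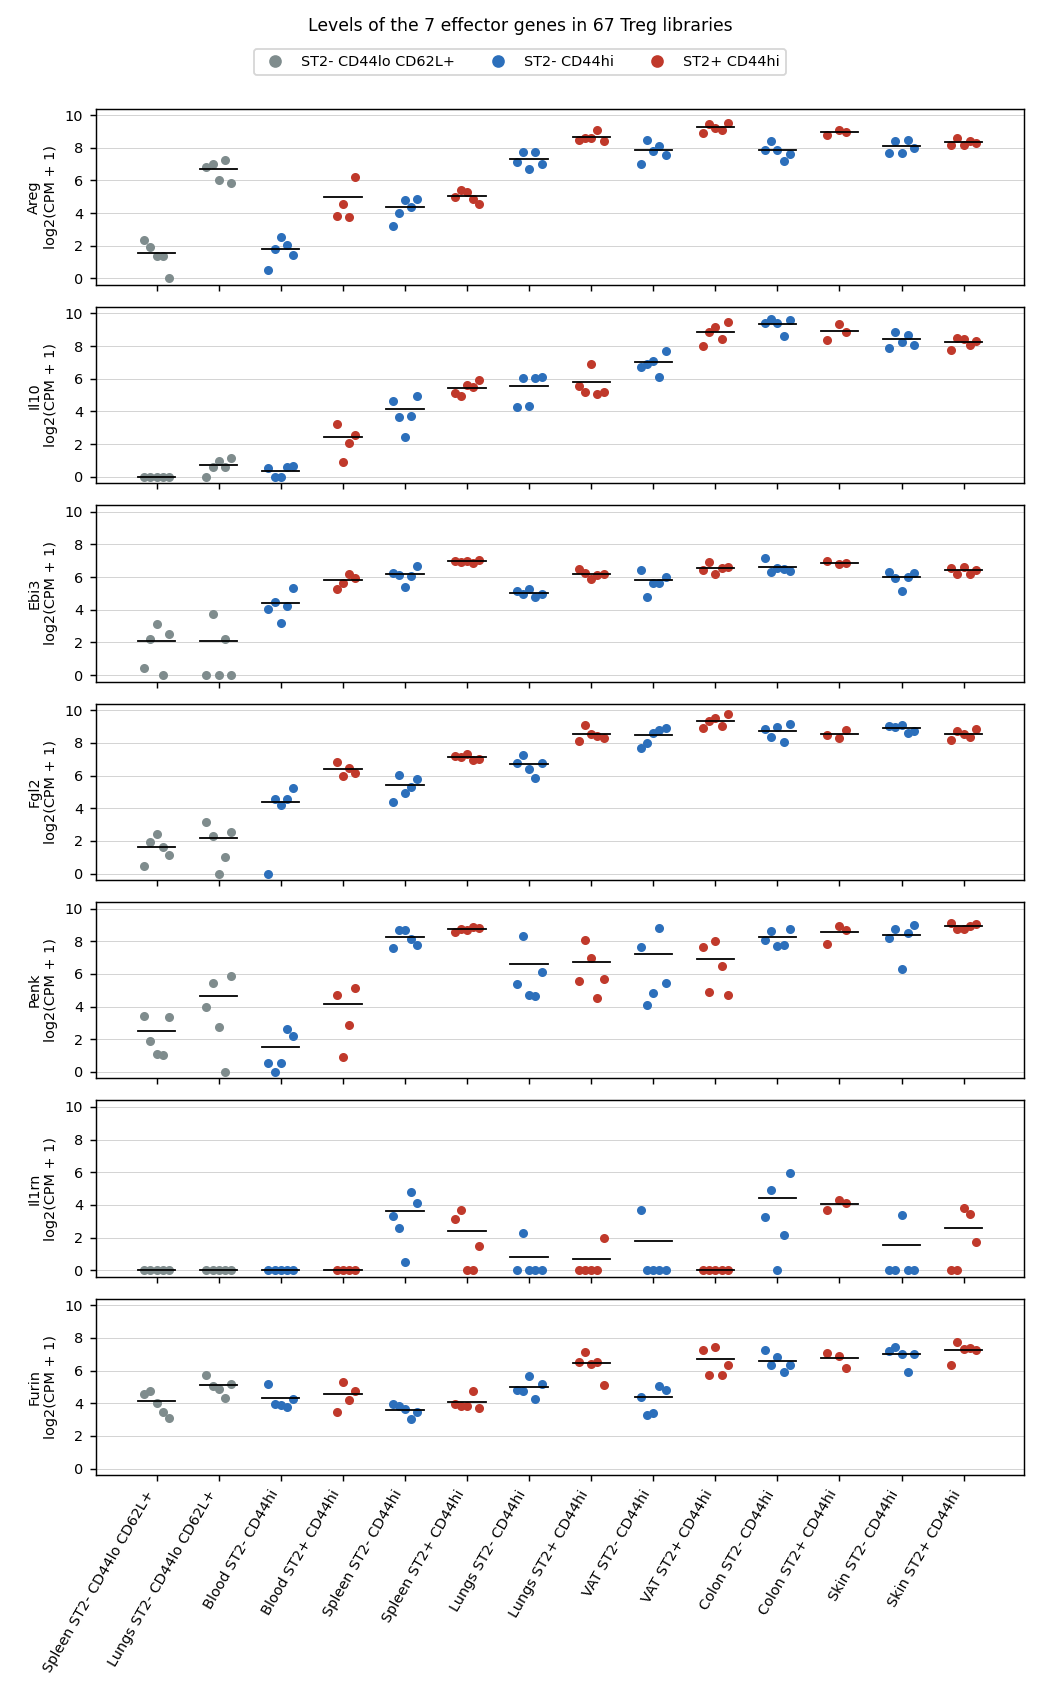
Level of each member in each library, as log2(CPM + 1), by tissue and population; points are mice and short lines are group means. Areg, Il10 and Fgl2 lie lower in blood and spleen than in VAT, colon and skin of the same population, Il10, Ebi3 and Fgl2 are near 0 in central Tregs, and Il1rn is at 0 in most libraries.

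Levels are given as CPM after scaling by the trimmed mean of M-values (TMM). Amphiregulin RNA was most abundant in VAT ST2+ Tregs at 612 ± 108 CPM (mean ± SD, n = 5), followed by colon ST2+ at 493 ± 52.6 (n = 3) and lung ST2+ at 403 ± 82.1 (n = 5). At the other end stood blood ST2- Tregs with 2.53 ± 1.64 CPM and splenic central Tregs with 1.98 ± 1.51 (n = 5 each). In the order of the 14 group means, only 2 neighbouring pairs were separated. Separated here means a fold of at least 1.5 with an adjusted p of at most 0.05 in edgeR, whether or not libraries overlap. Lung central Tregs lay above spleen ST2+ Tregs by a log2 difference of 1.67 (adjusted p = 1.20e-04), and spleen ST2- above blood ST2- Tregs by 2.93 (adjusted p = 3.06e-05).

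Il10 was highest in colon ST2- Tregs at 666 ± 168 CPM (n = 5). It stood at 484 ± 169 in colon ST2+ (n = 3) and 471 ± 178 in VAT ST2+ Tregs (n = 5), and it was 0 in all 5 libraries of splenic central Tregs, which at their summed depth allows up to 0.243 CPM (3 counts over the group). Such floors and intervals cover counting error only, since reads amplified by PCR without molecular identifiers are not independent molecules. Neighbours in its order were separated at 3 places. Skin ST2+ lay above VAT ST2- Tregs (log2 difference 1.22, adjusted p = 0.00657), spleen ST2- above blood ST2+ (1.96, adjusted p = 0.0107), and blood ST2+ above lung central Tregs (2.65, adjusted p = 0.0234). Libraries overlapped between spleen ST2- and blood ST2+ Tregs (4.35 to 29.9 against 0.849 to 8.51 CPM). They also overlapped between blood ST2+ and lung central Tregs (0 to 1.20 CPM), a pair that rests on 36 against 7 counts.

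Ebi3 had the flattest profile among CD44hi Tregs, from 124 ± 6.26 CPM in spleen ST2+ to 20.6 ± 11.7 in blood ST2- Tregs (n = 5 each). Only the step from blood ST2- Tregs down to splenic central Tregs, at 3.27 ± 3.21 CPM, separated neighbours (log2 difference 2.59, adjusted p = 5.94e-04). Fgl2 ran from 649.7 ± 162 CPM in VAT ST2+ to 2.13 ± 1.5 in splenic central Tregs (n = 5 each). Its neighbours were separated between VAT ST2- and spleen ST2+ (log2 difference 1.34, adjusted p = 0.00771) and between blood ST2- and lung central Tregs (2.35, adjusted p = 7.67e-04). Libraries of the latter pair overlapped, at 0 to 36.3 against 0 to 7.72 CPM.

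Penk ranked high in spleen as well as in skin. Skin ST2+ Tregs held 488 ± 57.9 CPM and spleen ST2+ Tregs 430.4 ± 32.8, against 119 ± 103 in VAT ST2+ and 103 ± 102 in lung ST2+ Tregs (n = 5 each). Its spread between mice was also wide, with a coefficient of variation of 67.8% at the median of the 12 groups averaging 10 CPM or more, against 28.3% for Fgl2 over the same number of groups. No neighbouring groups were separated for Penk, nor for Il1rn, which was at 0 throughout 5 groups and reached at most 20.2 ± 25.1 CPM (colon ST2-, n = 5). Furin ranged from 154 ± 49.3 CPM in skin ST2+ to 11.2 ± 2.87 in spleen ST2- Tregs (n = 5 each), with neighbours separated only between lung ST2+ and lung central Tregs (log2 difference 1.39, adjusted p = 0.00780). Libraries of that pair overlapped, at 33.7 to 139 against 18.9 to 52.6 CPM.

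**Figure D2:**
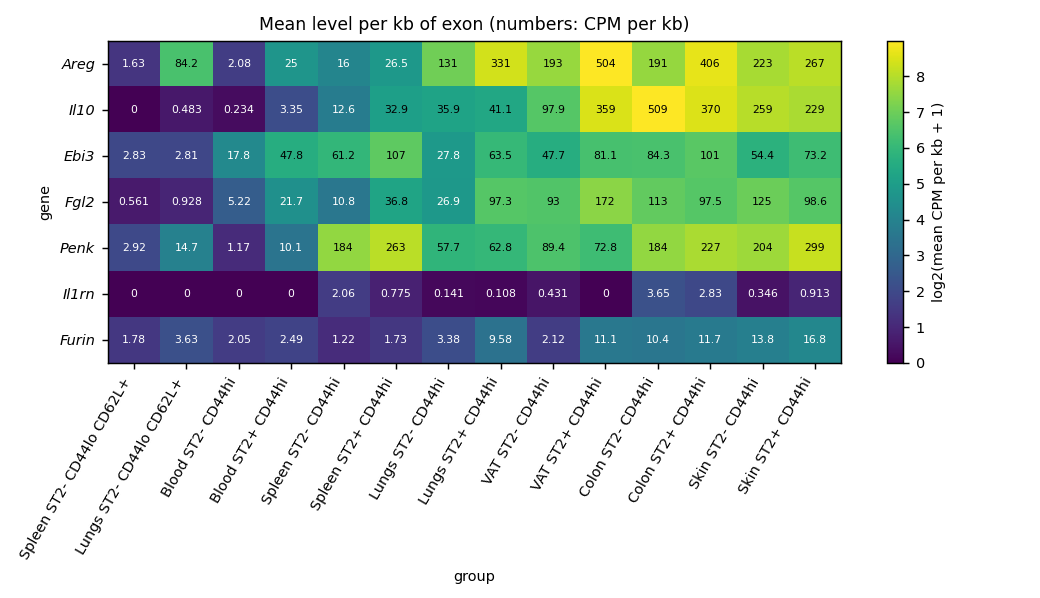
Mean level of each member in each group in CPM per kilobase of exon, with the value printed in each cell. In VAT ST2+ Tregs Areg stands at 504, Il10 at 359 and Fgl2 at 172, whereas Furin nowhere exceeds 16.8 and Il1rn nowhere exceeds 3.65.

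Between genes, levels can be compared only per length. Dividing by the merged exon length (1215 bases for Areg, 1310 for Il10, 3788 for Fgl2, 9178 for Furin) gave 504 CPM per kilobase for Areg in VAT ST2+ Tregs, 509 for Il10 in colon ST2- Tregs and 299 for Penk in skin ST2+ Tregs. The highest group means were 172 for Fgl2, 107 for Ebi3, 16.8 for Furin and 3.65 for Il1rn. Merged exons count sequence of every transcript, so genes with alternative first exons, such as Furin and Il1rn, come out lower on this scale than a single transcript would.

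The first comparison asks how ST2+ Tregs differ from ST2- CD44hi Tregs of the same tissue. Amphiregulin was higher in ST2+ Tregs of blood, lungs and VAT, Il10 in blood and VAT, Fgl2 in blood, spleen and lungs, and Furin in lungs and VAT. Each of these 10 differences passed a fold change of at least 1.5 with an adjusted p of at most 0.05, and all were higher in ST2+ Tregs. They are 10 of 42 member-by-tissue comparisons, where 1.42% of all gene-by-tissue comparisons were called. By edgeR no member was called in colon or skin, where 0.0683% and 0.213% of genes were, and at an unadjusted p under 0.05 in edgeR 1 member (Areg) stood in colon and 0 in skin. The voom fit called Areg in colon. Ebi3, Penk and Il1rn were called in no tissue by edgeR, with an unadjusted p under 0.05 for Ebi3 in blood and lungs, Penk in blood and Il1rn in VAT.

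**Figure D3:**
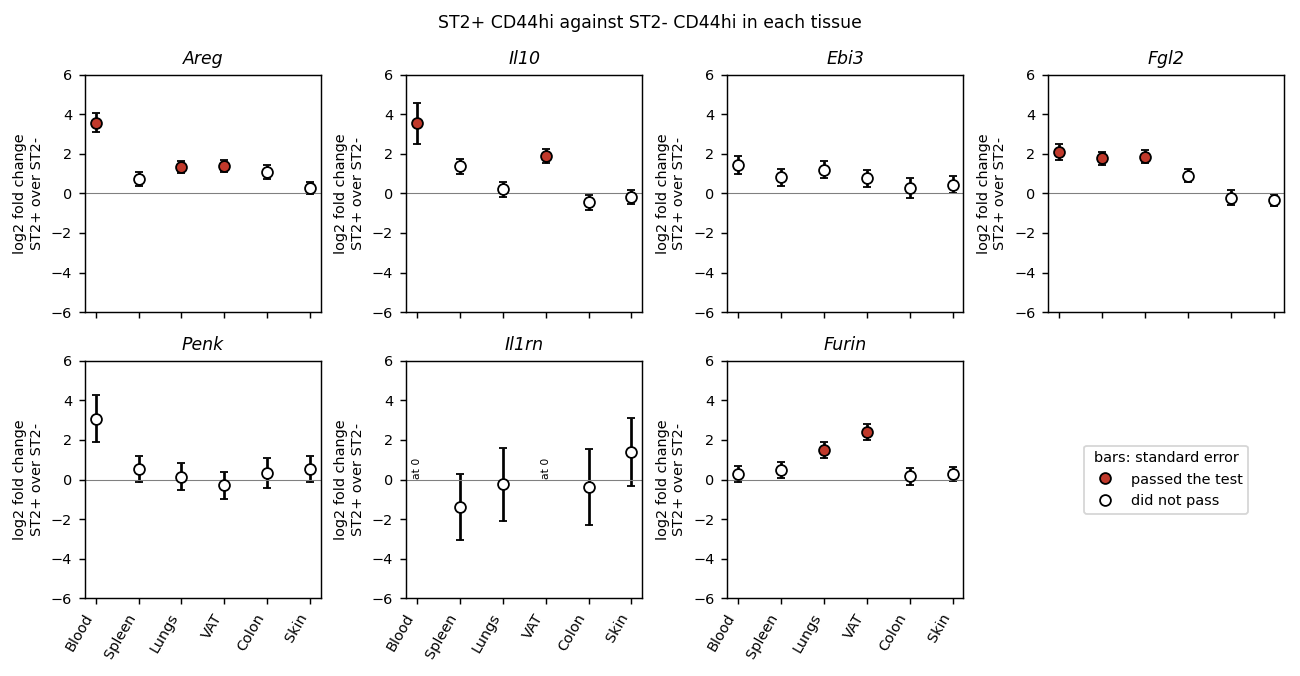
Log2 fold change of each member, ST2+ over ST2- CD44hi Tregs, by tissue, with bars of 1 SE; red filled points passed a fold of 1.5 and an adjusted p of 0.05, and "at 0" marks Il1rn comparisons with a group at 0. Called differences range from 1.34 for Areg in lungs to 3.57 for Areg in blood, and no point of colon or skin is filled.

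Areg, the shed growth factor, was measured in blood ST2+ Tregs of mice 2 to 5 at 13.3, 22.5, 12.4 and 73.2 CPM. In blood ST2- Tregs of mice 1 to 5 it was 0.439, 2.50, 4.87, 3.06 and 1.76 CPM. The groups did not overlap, mouse 5 stood far above the other ST2+ libraries, and the log2 fold change was 3.57 (SE 0.49, adjusted p = 8.50e-07). Without mouse 5 it was 2.58 (adjusted p = 7.35e-04). In blood 4.04% of genes were called in either direction. With limma voom and quality weights the adjusted p was 0.194, and in a fit of only these 2 groups it was 0.114.

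In lungs, ST2+ Tregs of mice 1 to 5 held 359, 380.5, 390.4, 545 and 339 CPM of Areg. ST2- Tregs held 137, 211, 103, 216 and 127 CPM. Every ST2+ library lay above every ST2- library (log2 fold change 1.34, SE 0.31, adjusted p = 0.0117, with 0.782% of genes called). The call was lost without mouse 3 (adjusted p = 0.174) or without mouse 4 (0.0888).

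VAT gave 483, 696, 587, 548 and 746 CPM of Areg in ST2+ Tregs. ST2- Tregs of the same mice gave 126, 352, 225, 280.4 and 188 CPM, again without overlap. The log2 fold change was 1.39 (SE 0.31, adjusted p = 0.00270, with 3.12% of genes called).

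In colon the 3 ST2+ libraries, of mice 1, 3 and 4, held 441, 546 and 493 CPM of Areg against 235, 347, 234, 145 and 199 in the 5 ST2- libraries. The groups did not overlap, yet the difference of 1.09 (SE 0.34) did not pass (adjusted p = 0.401). It did under voom (4.17e-05). In skin, ST2+ Tregs ranged from 285 to 387 CPM and ST2- Tregs from 203 to 349 CPM, and the groups overlapped (log2 fold change 0.26, 95% interval -0.34 to 0.85). In spleen, 31.1, 40.8, 38.2, 28.4 and 22.2 CPM in ST2+ stood against 8.23, 15.1, 27, 19.5 and 27.8 CPM in ST2- Tregs, with overlap (log2 fold change 0.72, SE 0.34, adjusted p = 0.924).

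Il10, the anti-inflammatory cytokine, was close to the counting floor in blood. ST2+ Tregs of mice 2 to 5 held 8.51, 0.849, 3.23 and 4.97 CPM, and ST2- Tregs of mice 1 to 5 held 0.439, 0, 0, 0.510 and 0.585 CPM. In counts this was 36 against 3 over the groups, a ratio of 13.4 per unit of depth with an exact 95% interval of 4.22 to 67.8 for counting error. The edgeR test called it (adjusted p = 0.0306), but the call was lost without mouse 1, 2, 4 or 5 (adjusted p 0.0664, 0.252, 0.0719 and 0.0729), under voom (0.425) and in a fit of these 2 groups only (0.403).

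VAT gave the clearest Il10 difference. ST2+ Tregs of mice 1 to 5 held 259, 465, 576, 347 and 706 CPM and ST2- Tregs 106, 120.2, 136, 67.7 and 211 CPM, so the groups did not overlap. The log2 fold change was 1.87 (SE 0.35, adjusted p = 3.21e-04).

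Spleen ST2+ Tregs held 33.3, 30.0, 47.2, 43.9 and 61.0 CPM of Il10 against 24.3, 11.7, 4.35, 12 and 29.9 in ST2- Tregs. These groups barely missed overlapping, and the difference of 1.37 (SE 0.38) did not pass (adjusted p = 0.126). In lungs, ST2+ libraries ranged from 32.8 to 118 CPM and ST2- libraries from 18.1 to 66.9 CPM, with ST2+ higher in 2 of 5 mice (log2 fold change 0.20, 95% interval -0.51 to 0.92). Colon and skin gave point estimates on the other side, -0.46 (95% interval -1.24 to 0.31) and -0.18 (-0.84 to 0.49), and neither passed. In colon, ST2+ Tregs held 332, 666 and 456 CPM and ST2- Tregs 686, 811, 675, 384 and 776 CPM of Il10. The myeloid sum stood the other way in colon, with a median of 2860 CPM in ST2+ and 667 CPM in ST2- Tregs; its part in the Il10 values was not tested.

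Ebi3, the shared cytokine subunit, was higher in ST2+ Tregs by point estimate in all 6 tissues, with log2 fold changes from 0.26 in colon to 1.43 in blood, but none passed. In lungs the ST2+ libraries held 89.5, 76.4, 58.7, 69.5 and 72.2 CPM against 34.3, 30.7, 38.4, 26.6 and 30.4, and in spleen 125, 120.1, 125, 116 and 132 CPM against 75.2, 69.5, 41.3, 65.1 and 102. Neither pair of groups overlapped. The adjusted p was 0.259 in lungs (log2 fold change 1.19, SE 0.44) and 1 in spleen (0.81, SE 0.43). Other tools called some of them, voom with adjusted p = 0.0292 in lungs and 0.00216 in spleen, and DESeq2 with 0.0263 in lungs and 0.00358 in blood. The study that produced the data used limma with quality weights. It lists Ebi3 among the genes differing between ST2+ and ST2- Tregs in blood, spleen and lungs.

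The interleukin-1 receptor antagonist could hardly be compared by ST2. Il1rn was 0 in every blood library. In VAT its only counts, 34, came from the ST2- library of mouse 1 at 11.9 CPM. Summed over each group and its depth, ST2- Tregs were at least 11.0-fold higher than ST2+ Tregs at 0 (floor of 3 counts over the group), which rests on that 1 library and did not pass (adjusted p = 0.161). In colon, ST2+ Tregs held 12, 18.4 and 16.6 CPM and ST2- Tregs 8.52, 28.7, 0, 3.39 and 60.4 CPM, with wide overlap.

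Fgl2, the secreted suppressor, differed by ST2 in the 3 tissues where ST2- Tregs held least of it. In blood, ST2+ Tregs of mice 2 to 5 held 111, 60.7, 88.0 and 69.1 CPM and ST2- Tregs of mice 1 to 5 held 0, 22.5, 17.5, 22.4 and 36.3 CPM. The groups did not overlap (log2 fold change 2.08, SE 0.39, adjusted p = 3.39e-04), although voom (0.10) and a fit of these groups alone (0.299) did not call it.

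In spleen, Fgl2 stood at 145, 139, 159.6, 124 and 127 CPM in ST2+ and at 20.2, 63.2, 30.0, 37.7 and 53.8 CPM in ST2- Tregs. All ST2+ libraries were higher (log2 fold change 1.76, SE 0.35, adjusted p = 0.00324, with 0.319% of genes called), and the call was lost without mouse 3 (0.101) or mouse 4 (0.0605). In lungs it stood at 272, 552, 372, 339.7 and 307 CPM in ST2+ and at 108, 149, 85.0, 57.4 and 110.0 CPM in ST2- Tregs. These groups lay far apart (log2 fold change 1.86, SE 0.34, adjusted p = 6.10e-04).

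In VAT, Fgl2 libraries touched without overlapping, at 473 to 877 CPM in ST2+ and 204 to 473 CPM in ST2- Tregs. The difference of 0.88 (SE 0.32) did not pass (adjusted p = 0.116) but did under voom (0.0257). In skin, ST2+ Tregs held 292, 416, 367, 327 and 464 CPM of Fgl2 and ST2- Tregs 513, 493, 548, 393 and 415 CPM, with ST2+ higher in 1 of 5 mice (log2 fold change -0.34, 95% interval -0.97 to 0.29). Colon gave -0.21 (95% interval -0.94 to 0.52).

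Penk, the enkephalin precursor, showed no called difference by ST2, and its libraries scattered within groups. VAT ST2+ Tregs of mice 1 to 5 held 198, 29.2, 255, 87.3 and 25.6 CPM, and VAT ST2- Tregs held 201, 15.9, 27.1, 444 and 42.8 CPM. In lungs mouse 2 stood highest in both CD44hi populations, at 272 CPM in ST2+ and 314 CPM in ST2- Tregs, while the other 4 mice held 22.1 to 122 and 24.0 to 67.8 CPM. Spleen ST2+ Tregs were even by contrast, at 383, 437, 418, 472 and 442 CPM, and ST2+ exceeded ST2- in all 5 mice there and in skin without passing (log2 fold changes 0.52 and 0.55, adjusted p = 1 and 0.947). In blood, 25, 0.849, 6.45 and 33.9 CPM in ST2+ overlapped 0.439, 0, 0.487, 5.10 and 3.51 CPM in ST2- Tregs (log2 fold change 3.08, SE 1.19, adjusted p = 0.129).

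Furin, the proprotein protease, differed most in VAT. ST2+ Tregs of mice 1 to 5 held 155, 52.7, 172, 51.0 and 79.3 CPM and ST2- Tregs 19.99, 8.91, 9.69, 32.0 and 26.6 CPM. The groups did not overlap (log2 fold change 2.39, SE 0.40, adjusted p = 4.84e-05).

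Lung ST2+ Tregs held 93.0, 139, 84.7, 89.6 and 33.7 CPM of Furin against 27.2, 25.4, 49.1, 18.3 and 35.2 CPM in ST2- Tregs. Mouse 5 brought the groups into overlap, with ST2+ below ST2- in that animal. The difference of 1.49 (SE 0.39) passed (adjusted p = 0.0361) but no longer did without any 1 of the 5 mice (0.0596 to 0.252) or with all 70 libraries (0.108). In blood, spleen, colon and skin the log2 fold changes of Furin lay between 0.16 and 0.50 and the groups overlapped.

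Some immediate early genes, which cells switch on within minutes of a stimulus, were also higher in ST2+ Tregs of VAT, lungs and blood. Summed over a list of 18 (Fos, Jun, Egr1, Nr4a1, Dusp1 and others), their medians in ST2+ and ST2- Tregs were 10749 and 6824 CPM in VAT, 6948 and 5284 in lungs, 2347 and 1983 in blood, 2447 and 2142 in spleen, 9931 and 8238 in colon, and 9683 and 8959 in skin. In VAT 5 of the 18 were higher in ST2+ Tregs, in lungs 3 and in blood 3, in spleen, colon and skin 0 (3, 3 and 0 at an unadjusted p under 0.05 in edgeR), and none was lower in any of the 6 tissues. Of all genes, 3.12% were called in either direction in VAT, 0.782% in lungs and 4.04% in blood. In spleen, colon and skin 0.319%, 0.0683% and 0.213% were. Atf3, a stress-induced transcription factor, was higher in VAT (log2 fold change 2.90, adjusted p = 4.84e-05) and lungs (2.28, 0.00675). Their part in the Areg and Furin differences was not tested.

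Whether the ST2 difference itself depended on the tissue was tested with an interaction term over the 6 tissues. Fgl2 (adjusted p = 0.00107), Il10 (0.00425), Areg (0.00803) and Furin (0.0443) passed, 4 of 7 where 1.43% of genes did. Ebi3 (0.869), Penk (0.747) and Il1rn (0.718) did not. The voom fit called none of the 7 (1 of 7, Fgl2, at an unadjusted p under 0.05), and with the mouse as a block Furin was lost (0.0586). Leaving out 1 mouse at a time left 1 to 3 members called, and all 4 were lost without some mouse, Fgl2 only without mouse 3 (0.0732).

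Contrasts between pairs of tissues, run once the interaction was known, passed for 10 of 105 member-by-pair comparisons, against 0.366% over all genes. The Areg difference was smaller than in blood by 3.32 in skin (adjusted p = 5.90e-04), by 2.86 in spleen (0.0349) and by 2.19 in VAT (0.0302), all in log2 units. Without mouse 5, whose blood ST2+ library stood highest, it was smaller by 2.34 in skin (adjusted p = 0.0313), by 1.58 in spleen (0.441) and by 1.36 in VAT (0.236). For Fgl2 the skin difference lay 2.42 below that of blood (0.00517) and 2.20 below that of lungs (0.0308), and the colon difference 2.29 below that of blood (0.0452). The Il10 difference in VAT exceeded that in colon by 2.34 (0.0326) and that in skin by 2.05 (0.0235), and the Furin difference in VAT exceeded that in blood by 2.11 (0.0313) and that in skin by 2.11 (0.0422). Leaving out each of the 5 mice in turn changed no sign, but of the 10 only Areg of skin against blood kept its call each time. Fgl2 of skin against blood lost it without mouse 2 (0.0502), and the other 8 lost it in at least 3 of the 5 fits.

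The second comparison sets tissues against each other within a population. Over the 15 tissue pairs, 47 of 105 member differences were called in ST2+ Tregs, where 12.1% of all gene-by-pair differences were, and 56 of 105 in ST2- Tregs, where 11.8% were. By an F test over the 6 tissues, 6 of 7 members differed in ST2+ Tregs (47.6% of genes did) and 7 of 7 in ST2- Tregs (43.5%), with Il1rn lost in both under DESeq2 (adjusted p = 0.0764 and 0.124). The exception was Ebi3 in ST2+ Tregs (adjusted p = 0.222), which DESeq2 (0.0414) and voom (0.0114) called.

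Areg divided the tissues into blood and spleen on one side and lungs, VAT, colon and skin on the other. All 8 pairs across that line were called in ST2+ Tregs, with log2 differences of 3.33 to 4.32. Spleen and blood ST2+ Tregs did not separate (0.07, SE 0.36). Among the other 4 tissues only skin against VAT passed (-0.92, adjusted p = 0.0195). In ST2- Tregs the same 8 pairs passed, up to 6.72 for skin over blood, and spleen exceeded blood by 2.93 (SE 0.49, adjusted p = 3.06e-05).

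Furin followed the same line in ST2+ Tregs, with all 8 pairs called at log2 differences of 1.93 to 3.28 and no other. In ST2- Tregs only colon and skin stood above the rest, by 1.62 to 3.50 over blood, spleen, lungs and VAT, and lungs exceeded spleen by 1.48 (adjusted p = 0.0160). VAT and blood ST2- Tregs were not separated in Furin (0.04, SE 0.40).

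**Figure D4:**
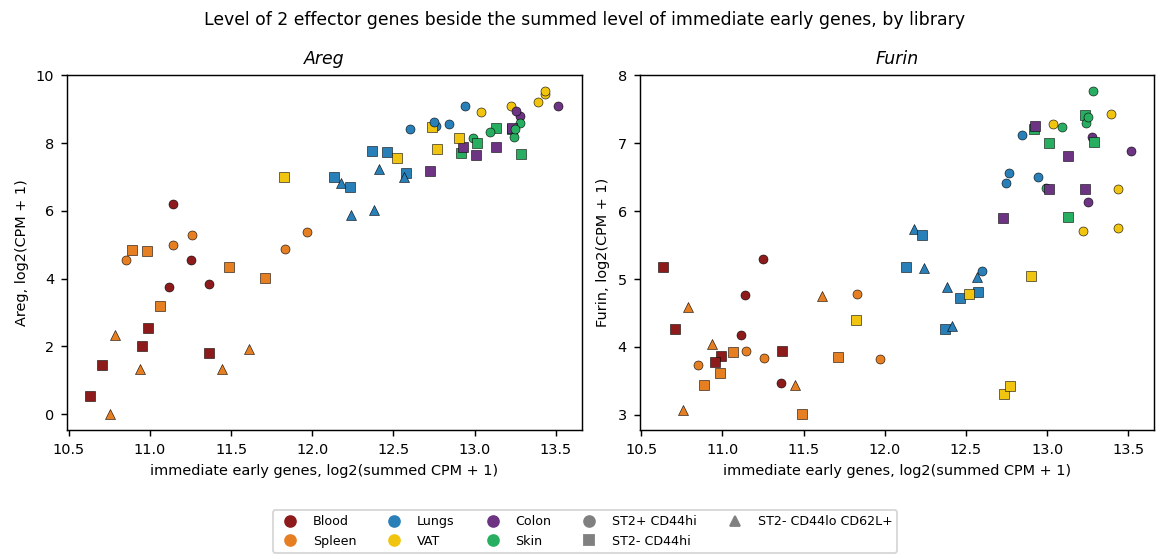
Areg and Furin in each of the 67 libraries (log2(CPM + 1)) against the summed level of 18 immediate early genes (CPM, log axis), by tissue and population. Blood and spleen libraries lie at low sums and low levels, and the 5 libraries of lung central Tregs lie at 4630 to 6069 CPM of immediate early genes with 57.4 to 151 CPM of Areg.

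The summed immediate early genes were also higher in lungs, VAT, colon and skin, VAT ST2- Tregs included. Their sum had group medians of 1961 to 2447 CPM in blood and spleen and of 5284 to 10749 CPM in lungs, VAT, colon and skin. Across the 67 libraries, which share mice, depth and preparation within a tissue, the log2 sum and log2 CPM correlated with r = 0.908 for Areg, 0.786 for Furin, 0.785 for Il10, 0.679 for Fgl2, 0.478 for Penk, 0.341 for Ebi3 and 0.148 for Il1rn. After subtracting group means r was 0.343 for Areg, 0.264 for Fgl2 and between -0.147 and 0.00563 for the other 5. The myeloid sum correlated with r = 0.767 for Fgl2, 0.760 for Il10, 0.709 for Ebi3, 0.587 for Areg, 0.565 for Penk, 0.515 for Furin and 0.455 for Il1rn, and within groups with 0.271 for Fgl2, 0.208 for Areg and -0.0854 to 0.0547 for the others. Cd74, a gene of the myeloid list, made up most of that sum in some groups. It averaged 279 CPM beside a median sum of 310 CPM in spleen ST2+ Tregs. In spleen ST2- Tregs it averaged 196 beside 213 CPM, and in splenic central Tregs 45.3 beside 54.6 CPM. In VAT ST2+ Tregs it averaged 195 beside 500 CPM. The correlations with this sum therefore cannot be read as myeloid RNA alone. The part of digestion, of myeloid RNA or of the immediate early genes in the tissue differences was not tested.

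More tissue pairs were called for Il10 than for any other member, 11 of 15 in ST2+ and 15 of 15 in ST2- Tregs. In ST2- Tregs they were, ordered blood, spleen, lungs, VAT, skin and colon, with steps of 5.49 (SE 0.78) from blood to spleen, 1.49 (0.39) to lungs, 1.45 (0.36) to VAT, 1.40 (0.35) to skin and 0.97 (0.34) to colon in log2 units. The last and smallest step had an adjusted p of 0.0365. The blood values rest on 3 counts. In ST2+ Tregs VAT, colon and skin each exceeded blood, spleen and lungs, by 2.47 to 6.81, and were not separated among themselves, nor were lungs and spleen (0.32, SE 0.36).

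Fgl2 again set lungs, VAT, colon and skin over blood and spleen, by 1.40 to 2.99 in ST2+ and 1.31 to 4.61 in ST2- Tregs. In ST2- Tregs VAT, colon and skin also exceeded lungs, by 1.79 to 2.22, whereas in ST2+ Tregs lungs, colon and skin were within 0.02 of each other in fitted difference (SE 0.32 to 0.37). Ebi3 ST2- Tregs of spleen, VAT, colon and skin exceeded those of blood by 1.43 to 2.25, and colon exceeded lungs by 1.60 (adjusted p = 0.0169).

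Penk was called higher in all 5 other tissues than in blood, by 2.65 to 4.90 in ST2+ and 5.58 to 7.42 in ST2- Tregs. In ST2+ Tregs the blood libraries (0.849 to 33.9 CPM) overlapped those of lungs (22.1 to 272) and VAT (25.6 to 255). Called Penk pairs in ST2+ Tregs numbered 7, but 4 without mouse 4 and 4 without mouse 5. Skin exceeded lungs in both populations (2.25 and 1.84, adjusted p = 0.0151 and 0.0463) and VAT in ST2+ Tregs (2.03, adjusted p = 0.0234). Spleen and skin were not separated in either population (0.18 and 0.15, SE 0.66 each). For Il1rn all 5 called pairs were against a group at 0 throughout, blood or VAT ST2+ Tregs, and its fitted sizes are not given for that reason.

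The third comparison asks how ST2- effector (CD44hi) Tregs differ from central (CD44lo CD62L+) Tregs. In spleen 6 of 7 members were higher in effector Tregs, as were 4.44% of all genes, and in lungs 3 of 7 were, as were 4.84% of all genes. Together 9 of 14 differences were called, where 5.28% of all gene-by-tissue differences were. Il10, Ebi3 and Fgl2 were higher in both tissues, Areg, Penk and Il1rn passed in spleen alone, and Furin passed in neither.

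**Figure D5:**
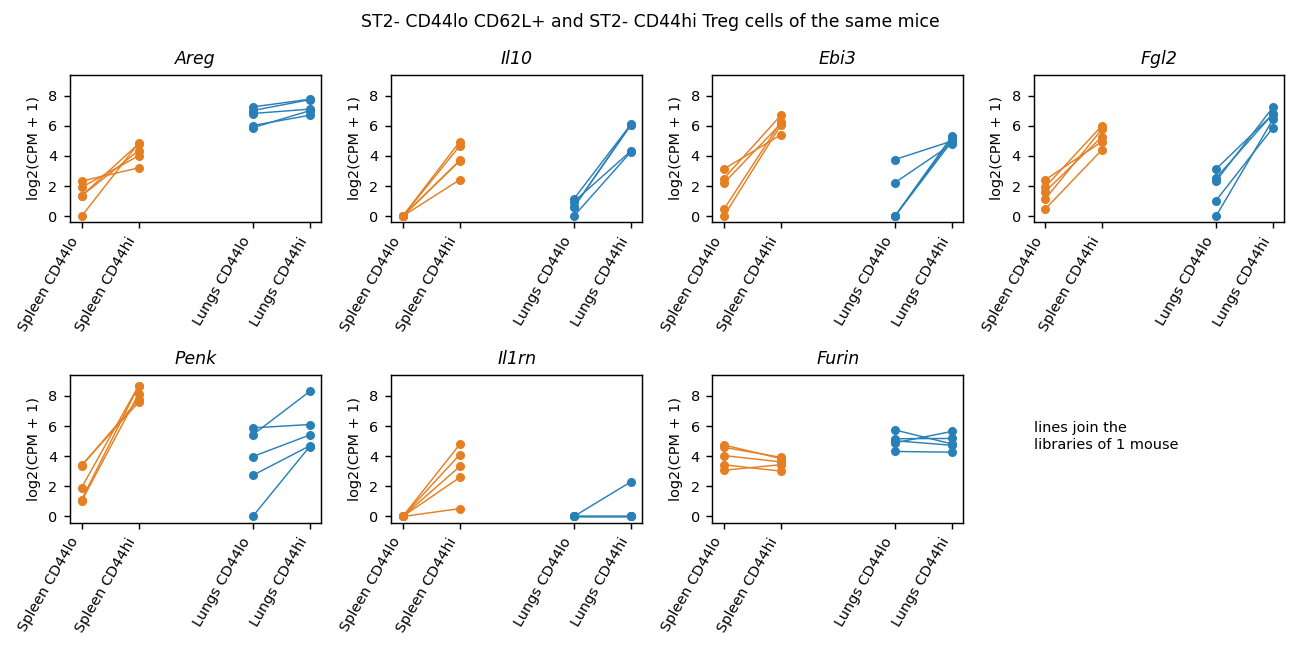
Levels of the members (log2(CPM + 1)) in central and ST2- effector Tregs of spleen and lungs, with a line for each of the 5 mice. Lines rise in both tissues for Il10, Ebi3 and Fgl2, and Areg of lungs starts from 57.4 to 151 CPM in central Tregs against 0 to 4.03 CPM in spleen.

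Il10 was absent from the 5 libraries of splenic central Tregs and amounted to 217 counts in splenic effector Tregs, at least 70.7-fold more (adjusted p = 1.21e-08). Lung central Tregs held 0, 0.502, 0.937, 0.525 and 1.20 CPM against 18.1, 66.5, 19.0, 64.7 and 66.9 CPM in effector Tregs. The groups lay far apart (log2 fold change 6.11, SE 0.62, adjusted p = 3.90e-11).

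Ebi3 in splenic central Tregs was 0.366, 3.57, 7.74, 0 and 4.66 CPM, all below the 41.3 to 102 CPM of effector Tregs (log2 fold change 4.38, SE 0.53, adjusted p = 5.06e-09). In lungs it was 0, 12.5, 0, 3.68 and 0 CPM against 26.6 to 38.4 (3.38, SE 0.53, adjusted p = 4.06e-06). Fgl2 in splenic central Tregs was 0.366, 2.78, 4.26, 2.07 and 1.16 CPM against 20.2 to 63.2 in effector Tregs (4.24, SE 0.49, adjusted p = 2.87e-09). In lungs it was 7.72, 4.02, 0, 1.05 and 4.79 CPM against 57.4 to 149 (4.75, SE 0.45, adjusted p = 2.51e-12). For neither gene did the groups overlap in either tissue.

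Penk in splenic central Tregs was 9.53, 2.78, 1.16, 1.03 and 9.32 CPM, far below the 191 to 408 CPM of effector Tregs (log2 fold change 5.91, SE 0.89, adjusted p = 1.52e-06). In lungs, central Tregs held 14.7, 41.7, 5.62, 0 and 57.8 CPM and effector Tregs 41.4, 314, 24.8, 24.0 and 67.8 CPM, which overlapped although effector Tregs were higher in 5 of 5 mice (1.94, SE 0.74, adjusted p = 0.117). Il1rn reached 147 counts in splenic effector and 0 in central Tregs, at least 47.9-fold more (adjusted p = 0.0350). That call was lost without any 1 of the 5 mice (0.0538 to 0.149) and with DESeq2 (0.0508).

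Furin did not follow the other members. Splenic central Tregs held 23.1, 25.8, 15.5, 9.81 and 7.38 CPM and effector Tregs 14.2, 13.4, 11.3, 7.05 and 9.84 CPM, with overlap and effector Tregs higher in 1 of 5 mice (log2 fold change -0.55, 95% interval -1.34 to 0.24). In lungs the difference was -0.10 (-0.85 to 0.66).

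Areg passed in spleen and not in lungs. Splenic central Tregs held 4.03, 2.78, 1.55, 1.55 and 0 CPM, below the 8.23 to 27.8 CPM of effector Tregs (log2 fold change 3.23, SE 0.48, adjusted p = 1.03e-06). Lung central Tregs held 111, 128, 63.7, 151 and 57.4 CPM against 103 to 216 CPM in effector Tregs, higher in effector Tregs of 5 of 5 mice but with overlapping groups (0.63, SE 0.31, adjusted p = 0.258). The difference between these fold changes was not tested.

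Set against each other, central Tregs of lungs exceeded those of spleen in Areg by 5.62 on the log2 scale (SE 0.45, adjusted p = 1.20e-14), without overlap in 5 against 5 libraries. It was the only member called, 1 of 7 where 2.12% of genes were higher. Furin followed with 1.03 (SE 0.39, adjusted p = 0.159) and Penk with 2.28 (SE 0.89, adjusted p = 0.174). Il10 stood at 7 counts over the lung group and 0 over the spleen group, at least 2.56-fold (adjusted p = 0.352), and Il1rn at 0 in both. Of the 18 immediate early genes, 10 were higher in lung than in splenic central Tregs and none lower, with summed medians of 5332 and 1961 CPM, and their part in the Areg difference was not tested.

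Genes whose log2 CPM over the 67 libraries followed each member most closely were found among the 13173 tested genes. For Areg they were Bhlhe40 (Pearson r = 0.927), Dusp1 (0.920) and Fosl2 (0.920), and the latter pair belongs to the immediate early list. For Il10 they were Samsn1 (0.920), Slc15a3 (0.909) and Mt1 (0.904), and for Fgl2 Adam8 (0.948), Metrnl (0.930) and Id2 (0.929). Ebi3 went with Zdhhc2 (0.883), Plcb4 (0.881) and Dkkl1 (0.880), Penk with Ccr8 (0.855), Cd83 (0.822) and Tnfrsf1b (0.794), Furin with Calca (0.850), Ero1l (0.845) and Irs2 (0.832), and Il1rn with Tcea3 (0.709), Il4 (0.660) and Slc35f5 (0.652). Ranked by Spearman's rho, 7 of these 21 genes remained among the nearest.

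Among the members, Il10 and Fgl2 ran most alike over the libraries (r = 0.889), followed by Ebi3 and Fgl2 (0.828) and Areg and Il10 (0.807). After subtraction of group means these fell to 0.0456, 0.158 and 0.00171, so the likeness lay between groups and hardly within them. Libraries of a group share tissue and sort gate, and those of a mouse share the animal.

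The direct partners of the members, that is their receptors, co-subunits and processing enzymes, numbered 19, of which 15 were abundant enough to test. Il10ra, the ligand-binding chain of the interleukin-10 receptor, was higher in ST2+ Tregs of spleen (log2 fold change 1.14, adjusted p = 0.0421), lungs (1.39, 0.00267) and VAT (1.27, 0.00220), and in effector over central Tregs of lungs (1.56, 8.25e-05). Il6st, the gp130 receptor chain through which interleukin-27 and interleukin-35 signal, was lower in ST2+ Tregs of blood (-1.94, 4.74e-06) and VAT (-0.89, 0.0359). Rhbdf2, which carries the amphiregulin-shedding protease Adam17 to the cell surface, was higher in blood ST2+ Tregs (2.78, 0.0477), while Adam17 itself was called in no ST2 comparison. Neither was Tgfb1, whose product Furin cleaves, nor Egfr, Il10rb, Il12rb2, Il1r1, Il1rap, Il27ra or Oprm1, although 6 of these (all but Il1rap and Oprm1) reached an unadjusted p under 0.05 in at least 1 tissue in edgeR.

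The Ebi3 partners Il12a and Il27 were too low to test, with group means of at most 1.72 and 0.530 CPM, and so were Il1a and Oprd1, the delta opioid receptor, which was at 0 in all groups. Il1r2, the decoy interleukin-1 receptor, was higher in effector than central Tregs of spleen (log2 fold change 10.17, adjusted p = 1.98e-10) and lungs (5.57, 1.74e-06). Il1b and Fcgr2b, the inhibitory Fc receptor that Fgl2 binds, reached 133 and 63.7 CPM in colon ST2+ Tregs, the group with the highest myeloid sums, and 39.4 and 21.7 CPM in colon ST2- Tregs.

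Of 10 further convertases and peptide-processing enzymes, 8 were tested. Pcsk1, which cleaves prohormones in secretory granules, was higher in ST2+ Tregs of blood (log2 fold change 6.66, adjusted p = 2.30e-04), lungs (6.02, 1.69e-04) and VAT (4.16, 2.50e-04). Cpd, a carboxypeptidase that trims furin products, was higher in blood ST2+ Tregs (1.85, 0.0197) and in effector Tregs of spleen (8.0, 1.18e-08) and lungs (5.28, 2.83e-09). Pcsk4 was lower in blood ST2+ Tregs (-2.91, 0.0436). None of the 5 tested ligands of the epidermal growth factor family other than Areg was called in any ST2 comparison by edgeR, with 2 of 30 tests (Hbegf in blood, Btc in VAT) at an unadjusted p under 0.05.

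Of 11 transcription factors linked to Il10 or Areg, Gata3 was higher in ST2+ Tregs of all 6 tissues (log2 fold changes 0.70 to 1.40). In blood 8 of the 11 were higher and none lower, where 4.04% of all genes were called in either direction. Among the 8 were Nfil3 (2.26, adjusted p = 7.26e-06) and Cebpb (1.5, 5.46e-06), and the list median was 1.5 against 0 over all genes. In each of the other 5 tissues Gata3 was the only one called. In effector over central Tregs 9 of 11 were higher in spleen and 9 of 11 in lungs, and none was lower. Of all genes 4.44% and 4.84% were higher there.

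A list of 16 other suppressive molecules gave calls in both directions. In blood ST2+ Tregs 4 of 16 were higher and 2 lower, and in VAT 1 was higher and 2 lower. Of all genes 4.04% were called in either direction in blood and 3.12% in VAT. Il2ra, the high-affinity interleukin-2 receptor chain, was lower in blood ST2+ Tregs (-0.94, adjusted p = 2.73e-04) and higher in VAT ST2+ Tregs (1.63, 6.76e-11). Lrrc32, which anchors latent TGF-β, was lower in both (-1.43 and -1.79, adjusted p = 0.0387 and 0.00284), and Icos was higher in blood (1.10, 2.36e-06).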

How the data were processed

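RNA of the sorted Tregs was amplified with SMART-Seq v4, made into Nextera XT libraries and sequenced as single 58-base reads. The authors aligned reads to GRCm38, and the submitters' processing notes name CASAVA 1.8.2, STAR, SAMtools, Picard, FastQC and HTSeq 0.4.1, with other versions not given in the sources used here. The deposited values are raw counts per gene for each library, in a table with 0 columns left unused. Since 58-base reads are counted once per gene, stretches shared with overlapping genes are uncertain, and the strand setting is not given in the sources used here.

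Groups were taken from the sample titles. The 3 libraries under 1000000 counts (blood ST2+ of mouse 1, colon ST2+ of mice 2 and 5) were left out. Protein-coding genes (53274 of 53465 IDs matched GENCODE M21, 21865 protein coding) with at least 1 CPM in 10% of libraries were kept, 13173 in all. edgeR 4.0.16 in R 4.3.3 fitted 1 term for each of the 14 groups to TMM-scaled counts and gave quasi-likelihood tests, with p-values adjusted by Benjamini-Hochberg over all tested genes within each contrast. Calls needed a 1.5-fold change or more together with an adjusted p no higher than 0.05 (F tests only the latter), tests were two-sided, and each SE is the size of the log2 fold change divided by the root of its F value. The code was run on simulated counts with changes in blood ST2+ Tregs only and no effect shared by libraries of a mouse. That run therefore does not bear on how far the calls depend on single mice. Likeness of genes was measured on log2 CPM (2 prior counts), and figures and sums a pseudocount of 1.

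By rule the text names the 7 members, their direct partners, the 3 most similar genes of each member and up to 3 genes of each other list by number of ST2 comparisons called. Members and lists were chosen with earlier results of these data known. Mouse identities in the labels pair libraries by animal. Deviations from group means correlated with a median of 0.0257 over 416 pairs of libraries from the same mouse and -0.00569 over 1666 pairs from different mice. The correlation was above 0 in 322 of the 416 and in 705 of the 1666, and the main fit held no term for the mouse. Alternatives were DESeq2 1.42.0, limma 3.58.1 voom with quality weights, median-of-ratios factors, no or a stricter filter on low counts, the mouse as a block, sorted cells as a covariate, all 70 libraries, only the groups compared, and leaving out each mouse. A fit without the colon libraries was added after their myeloid sums had been seen, as was leaving out each mouse for pairs of tissues in the interaction.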

Additional observations from a re-analysis of the deposited data

Results flagged for a closer look

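Within groups of 4 or 5 libraries, a single library stood far from the others (a gap to its nearest neighbour above Dixon's 95% critical value) in 11 of 85 member-by-group sets, each time at the high end. Chance alone gives about 1 in 20 for normally distributed values. In 4 of the 11 sets, those of Il1rn, the other libraries were all at 0, so that any count stands apart, and 7 of the 11 had a mean of at least 10 CPM. Blood ST2+ Tregs of mouse 5 held 73.2 CPM of Areg against 12.4 to 22.5 in the other mice, and lung ST2+ Tregs of mouse 4 held 545 CPM against 339 to 390.4. Lung ST2+ Tregs of mouse 3 held 118 CPM of Il10 against 32.8 to 46.7. Lung ST2- Tregs of mouse 2 held 314 CPM of Penk against 24.0 to 67.8, and colon ST2- Tregs of mouse 1 held 144 CPM of Ebi3 against 77.9 to 92.8. Furin stood apart in blood ST2- Tregs of mouse 1 (35.1 against 12.7 to 18.1 CPM) and in spleen ST2+ Tregs of mouse 4 (26.3 against 12.3 to 14.4 CPM). Il1rn was detected in a single library of its group at 2.99 CPM in lung ST2+ (mouse 5), 3.91 in lung ST2- (mouse 2), 9.57 in skin ST2- (mouse 3) and 11.9 in VAT ST2- Tregs (mouse 1), with the others at 0.

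By edgeR the ST2 difference varied with the tissue for Fgl2 (interaction over 6 tissues, adjusted p = 0.00107), Il10 (0.00425), Areg (0.00803) and Furin (0.0443). Voom called none of these, and in edgeR each lost its call when some mouse was left out. The sizes behind the interactions were log2 fold changes, ST2+ over ST2-, of -0.34 in skin to 2.08 in blood for Fgl2, -0.46 in colon to 3.53 in blood for Il10, 0.26 in skin to 3.57 in blood for Areg, and 0.16 in colon to 2.39 in VAT for Furin. Voom did not call the blood differences of Fgl2, Il10 and Areg, and that of Il10 rests on 36 against 3 counts.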

How the results depend on the processing

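Called ST2 differences numbered 10 in edgeR, 13 with DESeq2, 8 with only the groups compared and 6 to 8 when 1 mouse was left out (6 without mouse 4). Voom also gave 10, of which 6 were shared, since it lost Areg, Il10 and Fgl2 of blood and Furin of lungs and gained Areg of colon, Ebi3 of spleen and lungs and Fgl2 of VAT; the cause was not tested. The interaction, called for 4 members, gave 0 with voom and 1 to 3 when 1 mouse was left out. Tissue pairs called ranged from 39 to 43 in ST2+ and from 50 to 55 in ST2- Tregs without 1 mouse, against 47 and 56, members passing the F test from 5 to 6 and 6 to 7, and effector differences stood at 8 against 9. With the mouse as a replicate block 10 ST2 differences, 49 and 57 tissue pairs, 9 effector differences and 3 interactions were called, and Furin in the interaction was the only single result of those named to lose its call under the pairing. The Areg difference between central Tregs of lungs and spleen stayed called under all 15 alternatives. Of 20 called ST2, effector and central differences, 13 kept their call under every alternative run for them, and none of the 20 changed sign. Il1rn left the table under the stricter filter. Blood Il10 and most Il1rn values lie within a few counts of 0, where small differences are not detectable at this depth.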

Other observations

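Of 14 cytokines beside the members, 8 were abundant enough to test by ST2 in 6 tissues. Il4, the type 2 cytokine, was the only one called, in 1 tissue. Over all genes 1.42% of gene-by-tissue comparisons by ST2 were called. In lungs Il4 averaged 7.0 ± 7.01 CPM in ST2+ Tregs and was 0 in all 5 ST2- libraries (edgeR, adjusted p = 0.0154). In effector over central Tregs of spleen 3 of the 8 were higher (Il4, Il21 and Ifng) and in lungs none was. Of all genes 4.44% were higher in spleen and 4.84% in lungs. Colon ST2- Tregs held 18.5 ± 15.7 CPM of Il4 and colon ST2+ Tregs 23.1 ± 1.56.

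All 15 growth and repair factors on a further list were tested by ST2 in 6 tissues. Pdgfb, a platelet-derived growth factor subunit, was the only one called, in 1 tissue. Over all genes 1.42% of gene-by-tissue comparisons by ST2 were called, so this count says nothing particular about the list. It was 0 in all 5 VAT ST2+ libraries and averaged 13.8 ± 11.7 CPM in VAT ST2- Tregs, where 4 of 5 mice had counts (adjusted p = 0.00824). In effector over central Tregs Jag1 and Il18 were higher in spleen and Pdgfb, Mmp9 and Il18 in lungs, named here after their values were seen. Of all genes 4.44% were higher in effector Tregs of spleen and 4.84% in those of lungs.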
